A study of Homo sapiens with 48 samples.

Results

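The response to IGF-I after 4 h was examined in T47D-YA-IRS-2 #6, a subline of T47D-YA human breast cancer cells labelled as carrying IRS-2 (IRS-2 #6 here). The 3 arrays of cells given IGF-I for 4 h were compared with the 3 arrays of the same subline kept 4 h without it (SFM), which are 6 of the 48 arrays of the series, across all 54613 probe sets other than the Affymetrix controls. The arrays were taken by their source names, and no measured value chose them. All groups share the T47D-YA background, a T47D variant described by the study as having IGF-1R without IRS proteins, and all cells spent 24 h in serum-free medium (SFM) before IGF-I was added. According to the methods the control cells received SFM with fibronectin alone. The groups set against this response each held 3 IGF-I arrays and 3 SFM arrays of their own: IRS-2 #6 at 24 h, and, at 4 h, IRS-2 #1, a second subline with IRS-2, and IRS-1 #10 and IRS-1 #20, which are labelled as carrying IRS-1. IRS-2 #6 is 1 subline with 1 clone number, so the spread measured here is that between its arrays and not between clones. The labels letter the arrays A, B and C without saying whether these were separate cultures, so the spread may be technical.

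IGF-I binds the receptor tyrosine kinase IGF-1R, which phosphorylates IRS adaptor proteins on tyrosine, and these in turn recruit PI3-kinase and Grb2. The PI3-kinase arm activates AKT, which keeps FOXO transcription factors out of the nucleus, while the Grb2 arm activates RAS and the ERK kinases. ERK signalling switches on immediate early transcription factors within minutes and, after them, phosphatases and adaptors that dampen ERK itself. Changes in actin act on transcription through SRF with its MRTF coactivators and through YAP with TEAD factors, which share targets such as the CCN genes.

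The 6 arrays had medians of 7.45 to 7.5 with IGF-I and 7.43 to 7.48 in SFM, as log2 expression summarized by GC-RMA. Over probe sets, pairs of arrays within a group had correlations of 0.996 to 0.998, and pairs of an IGF-I and an SFM array 0.995 to 0.997. The 13 breast luminal markers averaged 12.15 to 12.22 per IGF-I array and 12.20 to 12.26 per SFM array, and the marker lists of 4 other cell types averaged 6.82 to 8.12 with IGF-I and 6.88 to 8.03 in SFM. None of these markers was called (limma; 7 of 42, or 16.7%, had an unadjusted p under 0.05, against 13.5% of all genes). The difference between the 3' and 5' probe sets of ACTB, a sign of RNA integrity, was 0.04 to 0.11 with IGF-I and 0.05 to 0.17 in SFM. IRS2 itself was listed at 6.75, 6.97 and 6.95 in the IGF-I arrays, against 6.88, 7.0 and 7.0 in the SFM arrays. Over all 12 arrays of each subline this probe set ranged from 6.74 to 7.04 in IRS-2 #6 and from 6.77 to 7.04 in IRS-2 #1, against 6.98 to 7.59 in IRS-1 #10 and IRS-1 #20, so the IRS-2 sublines were not higher, and its other probe set overlapped between them. IRS1 ran against the labels in 1 of its 3 probe sets, at 7.65 to 8.42 in IRS-2 #6 and 8.30 to 8.98 in IRS-2 #1, against 5.25 to 6.16 in IRS-1 #10 and 5.74 to 6.42 in IRS-1 #20, and no IRS1 probe set was higher in the IRS-1 sublines. The values therefore do not show the labelled adaptor in either pair of sublines. Whether these probe sets read the introduced messages was not tested, and the sublines are called here as labelled. IGF1R, the receptor, was at 10.54, 10.47 and 10.59 with IGF-I and at 10.52, 10.68 and 10.57 in SFM.

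IGF-I raised 109 probe sets and lowered 13 by at least 1.5-fold at a Benjamini-Hochberg adjusted p under 0.05 (limma, called below), 0.200% and 0.0238% of those tested. Counted by gene, with each of 19775 genes read by its brightest probe set, 54 rose (0.273%) and 6 fell (0.0303%). At the adjusted p alone 373 genes were higher (1.89%) and 312 lower (1.58%), so the near balance of small changes turned into 54 against 6 among changes of at least 1.5-fold. The 54 rises had a median log2 fold change of 0.70 and ran from 0.59 to 2.33, and the 6 falls ran from -0.63 to -0.88. In all 60 genes the 3 IGF-I arrays lay on 1 side of the 3 SFM arrays, which was so for 14.5% of all genes. The median over all genes was -0.015.

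**Figure D1:**
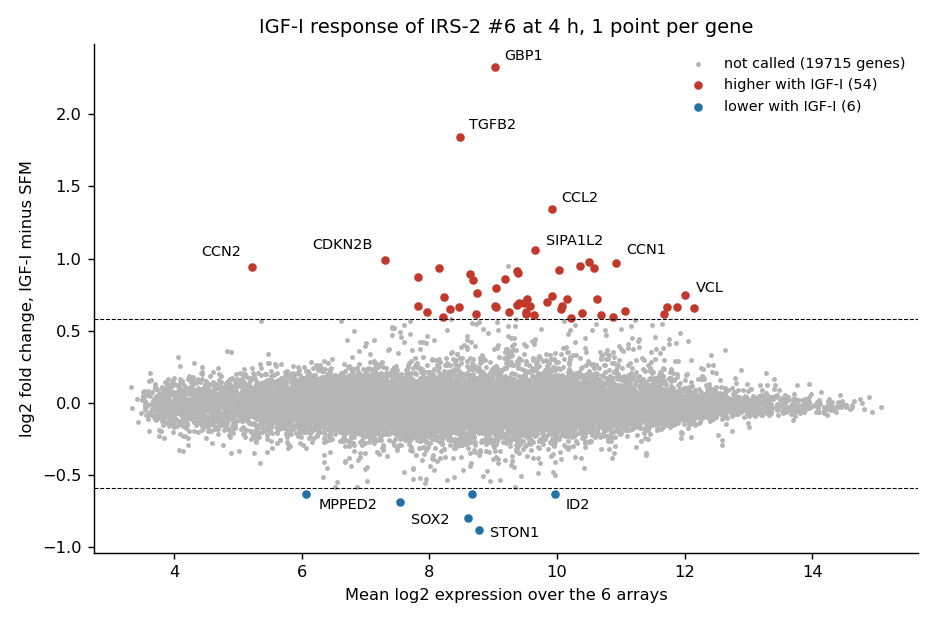
Mean log2 expression of each gene over the 6 arrays (x axis) against its log2 fold change, IGF-I minus SFM (y axis), in IRS-2 #6 at 4 h. Red points are the 54 called rises, blue points the 6 called falls and dashed lines the 1.5-fold limits. GBP1 and TGFB2 stand highest at 2.33 and 1.85, and CCN2 rose from the dimmest level of the rises.

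The largest rise by gene was that of GBP1, an interferon-inducible GTPase of host defence. Its expression was 10.28, 10.12 and 10.20 in the 3 IGF-I arrays, against 7.61, 8.06 and 7.95 in the SFM arrays. The groups lay over 2 log2 units apart, and the log2 fold change was 2.33 ± 0.09 (SE), or 5.02-fold, at an adjusted p of 1.86e-24. Another 2 of its 4 probe sets rose by 2.25 and 1.99, and the dimmest, near 4.9 in both groups, was not called (-0.14). Related genes moved less. Of 37 measured interferon-stimulated and guanylate-binding genes, 3 rose and 0 fell, and 8 were higher at the adjusted p alone. The other rises were IFIT2, at 9.63, 9.35 and 9.70 with IGF-I against 8.67, 9.16 and 8.96 in SFM, and IFIT3, at 10.67, 10.55 and 10.88 against 9.91, 10.17 and 10.15. Both encode interferon-induced proteins that bind viral RNA, and their log2 fold changes of 0.63 and 0.62 were under the 1.5-fold limit without the SFM array A (0.50 and 0.54) or without the IGF-I array C (0.56 and 0.53). ISG15, a ubiquitin-like modifier and a classic member of this set, changed by 0.16, the transcription factor IRF1 by 0.22, GBP2 by 0.45 and GBP4 by -0.16, none of them called by the brightest probe set. The other probe set of GBP2 was called, at 0.86. It read 7.22, 7.17 and 7.0 with IGF-I, against 6.3, 6.46 and 6.05 in SFM. The list median was 0.11.

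Promoters of GBP1 and IFIT3 are shown because these are called interferon-stimulated genes found among the RefSeq promoters (GRCh38.p14, 250 bases before to 50 after the annotated start). Capitals mark matches to the interferon-stimulated response element, searched on both strands, and in GBP1 also a CArG box, the site that SRF binds. GBP1 lies at chr1:89065159-89065458, minus strand, and IFIT3 at chr10:89327747-89328046, plus strand.
GBP1: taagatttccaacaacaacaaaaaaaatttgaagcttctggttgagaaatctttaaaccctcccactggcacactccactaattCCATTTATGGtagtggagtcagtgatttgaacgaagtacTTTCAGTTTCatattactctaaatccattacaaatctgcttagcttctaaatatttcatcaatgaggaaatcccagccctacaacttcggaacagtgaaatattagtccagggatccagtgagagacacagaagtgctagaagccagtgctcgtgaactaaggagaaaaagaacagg
IFIT3: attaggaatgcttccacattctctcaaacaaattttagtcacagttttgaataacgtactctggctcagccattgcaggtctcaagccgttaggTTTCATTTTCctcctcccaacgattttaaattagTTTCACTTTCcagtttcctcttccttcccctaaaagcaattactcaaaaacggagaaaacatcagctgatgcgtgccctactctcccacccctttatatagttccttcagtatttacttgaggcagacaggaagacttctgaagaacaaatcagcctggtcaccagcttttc
GBP1 held 1 response element match, starting 127 bases before its start site, and IFIT3 held 2, at 156 and 122 bases before. Among all 15384 promoters, 2.94% held such a match, and of the 44 called rises with a promoter 3 did (6.8%).

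TGFB2, a secreted ligand of the TGF-beta receptors, was the second largest rise. It was at 9.54, 9.46 and 9.19 with IGF-I, against 7.56, 7.60 and 7.5 in SFM, a rise of 1.85 ± 0.10 (SE), or 3.59-fold, at an adjusted p of 1.1e-19. Of its 5 probe sets 4 were called, with log2 fold changes from 1.42 to 2.99. The probe set with the 2.99 read 7.88, 7.47 and 7.47 with IGF-I, against 4.52, 4.70 and 4.62 in SFM, the largest change of any probe set in this comparison. TGFB1, the paralogous ligand, was at 9.12, 8.97 and 8.79 with IGF-I and at 8.89, 8.93 and 8.90 in SFM, so its groups overlapped (0.05, adjusted p = 0.941). Among 34 measured TGF-beta ligands, receptors and targets, 2 rose and 0 fell. The second was GDF15, a stress-induced member of the ligand family, at 8.4, 8.11 and 8.32 with IGF-I against 7.57, 7.71 and 7.67 in SFM (0.63). Without the IGF-I array A, GDF15 was at 0.57 and no longer called. Only 1 of its 3 probe sets was called, with the others at 0.03 and -0.06, and GDF15 was not called when its probe sets were averaged. TGFBR3, the betaglycan coreceptor, was lower by less than 1.5-fold (-0.28), and SMAD7, an inhibitor of the pathway, changed by -0.23 without passing the test. The median of this list was 0.02.

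CCL2, the chemokine that attracts monocytes, was at 10.74, 10.37 and 10.67 with IGF-I, against 9.22, 9.23 and 9.29 in SFM. The rise was 1.34 ± 0.08 (SE), or 2.54-fold, at an adjusted p of 2.21e-18. Of 32 measured chemokines and cytokines only CCL2 and GDF15 were called, and the list median was 0.03. CXCL8, the chemokine IL-8, changed by 0.24 and CXCL1 by 0.19 without passing the adjusted p, and IL6 by 0.08. Genes of NF-kB, the factor that drives many chemokines, stayed under the fold limit. 0 of 20 were called by limma and 4 were higher at the adjusted p alone. At an unadjusted p under 0.05, 9 were higher (45%, against 5.38% of all genes) and 1 lower, and the largest were NFKB2 and RELB at 0.35 and 0.34.

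**Figure D2:**
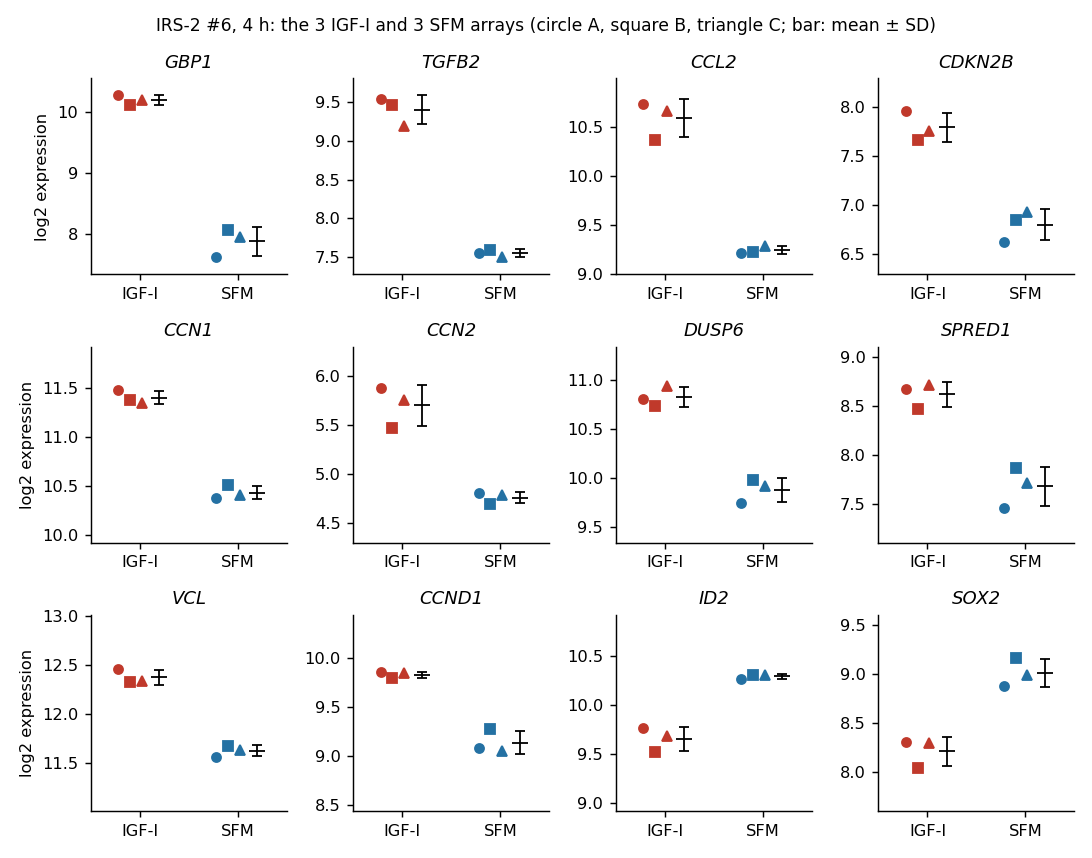
Log2 expression of 12 called genes in IRS-2 #6 at 4 h, with the 3 IGF-I arrays (red) left of the 3 SFM arrays (blue); circles are array A, squares B and triangles C, and black bars give the mean ± SD of each group. In all 12 panels the groups are separate, 10 with higher values under IGF-I, and ID2 and SOX2 with lower ones.

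Feedback inhibitors of ERK signalling were the list with the highest median, 0.42 against -0.015 over all genes. Of 20 measured, 6 rose and 0 fell, and 13 were higher at the adjusted p alone. DUSP6, a phosphatase that acts on ERK in the cytoplasm, was at 10.81, 10.74 and 10.94 with IGF-I, against 9.75, 9.98 and 9.92 in SFM (0.95 ± 0.08, SE). SPRED1, which recruits neurofibromin to switch off RAS, was at 8.67, 8.47 and 8.71, against 7.46, 7.86 and 7.71 in SFM (0.94 ± 0.10). Its relative SPRED2 was at 9.96, 9.76 and 9.79, against 8.79, 9.04 and 8.97 in SFM (0.90 ± 0.07). All 3 kept their groups more than 0.6 apart, with adjusted p of 6.33e-13, 1.07e-09 and 4.09e-13. DUSP6 was called by 3 of 3 probe sets, SPRED1 by 2 of 3 and SPRED2 by 1 of 3. SPRED2 was not called when its probe sets were averaged. The nuclear MAP kinase phosphatases DUSP1 and DUSP4 both rose by 0.67, and DUSP10, which acts on JNK and p38, by 0.60. DUSP1 was called by 1 of 3 probe sets, DUSP4 by 2 of 3 and DUSP10 by 1 of 2. Without the IGF-I array A, DUSP1 was at 0.57 and DUSP10 at 0.48, under the 1.5-fold limit, and DUSP10 was also not called without the SFM array B or C (0.58 each). SPRY2, ETV5, DUSP5 and ERRFI1 lay between 0.54 and 0.58, past the adjusted p and under 1.5-fold, whereas ETV4 and SPRED3 were at 0.00 and -0.02. ETV4 and ETV5 are counted in this list but encode transcription factors and not inhibitors.

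Immediate early transcription factors split. Of 32 measured, 6 rose and 1 fell, and 16 were higher at the adjusted p alone, with a list median of 0.19. ID3 (0.76), KLF4 (0.72), ATF3 (0.69), SRF (0.65), KLF6 (0.61) and IER3 (0.61) rose. IER3 is counted in this list as an immediate early gene and does not encode a transcription factor. KLF4, a zinc-finger factor of epithelial differentiation, was at 10.71, 10.38 and 10.44 with IGF-I, against 9.69, 9.83 and 9.85 in SFM. ATF3, a stress-induced bZIP factor, was at 9.85, 9.62 and 9.77, against 9.08, 9.0 and 9.08 in SFM. Only 1 of the 3 probe sets of ATF3 was called, with the others at 0.39 and 0.09, and it was not called from their average. KLF6 and IER3 were not called without the IGF-I array A (0.55 and 0.53), nor KLF6 without the SFM array A (0.57). Factors known for the first minutes of a growth factor response were not called at 4 h. FOS was at 7.34, 7.62 and 7.44 with IGF-I and 7.71, 7.58 and 7.74 in SFM (-0.21, adjusted p = 0.342), EGR1 changed by 0.10 (adjusted p = 0.8) and MYC by 0.07 (adjusted p = 0.877), while JUN was higher by 0.31, under 1.5-fold (adjusted p = 0.00208). The ID proteins, which block basic helix-loop-helix factors, went in opposite directions. ID3 was at 9.23, 9.01 and 9.13 with IGF-I against 8.24, 8.48 and 8.37 in SFM, and ID2 at 9.76, 9.52 and 9.68 against 10.26, 10.30 and 10.30 (-0.63 ± 0.07, SE, adjusted p = 1.07e-09). Without the IGF-I array B, ID2 was not called (-0.56). Its other probe set, at -0.46, was not called either.

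Targets of SRF and of YAP with TEAD formed the list with the most called members. Of 26 measured, 8 rose and 0 fell, 24 had a positive log2 fold change (8582 of all 19775 genes did), and the median was 0.28. FHL2, a LIM-domain cofactor of SRF, was at 11.09, 10.91 and 10.99 with IGF-I, against 9.95, 10.09 and 10.01 in SFM (0.98 ± 0.06, SE, adjusted p = 2.7e-16). CCN1, a secreted matrix protein that binds integrins, was at 11.48, 11.38 and 11.35, against 10.38, 10.51 and 10.41 in SFM (0.97 ± 0.06, adjusted p = 2.95e-16). CCN2, its relative known as connective tissue growth factor, was at 5.87, 5.47 and 5.75, against 4.8, 4.69 and 4.78 in SFM (0.94 ± 0.11, adjusted p = 1.44e-08). CCN2 was the dimmest rise and was not called after a further background subtraction (normexp). THBS1, which encodes thrombospondin-1, rose by 0.92, but only 2 of its 7 probe sets were called. The other called members were TGFB2, FILIP1L (0.88), VCL (0.75) and ZYX (0.67). VCL and ZYX encode vinculin and zyxin, proteins that link actin to focal adhesions, and VCL was at 12.46, 12.33 and 12.34 with IGF-I against 11.57, 11.68 and 11.64 in SFM. Only 1 of the 2 probe sets of VCL was called, against 2 of 2 for ZYX, and VCL was not called from averaged probe sets. FILIP1L was uneven among the IGF-I arrays, at 8.66, 7.96 and 8.18, against 7.2, 7.36 and 7.62 in SFM. Only 1 of its 3 probe sets was called. SRF itself was at 10.42, 10.31 and 10.44, against 9.71, 9.78 and 9.72 in SFM. It was called by 1 of its 2 probe sets and not from their average. ANKRD1, another YAP target, changed by 0.16, AXL by 0.08 and TAGLN, an SRF target of smooth muscle, by 0.06, none of them called.

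Promoters of SRF, CCN2 and TGFB2 are shown as called genes with sites for these factors in their promoters, and that of DUSP1 as a called phosphatase with a full cyclic AMP response element (CRE). Capitals mark CArG boxes in SRF, TEAD sites (GGAATG) in CCN2 and TGFB2, a CRE core (TGACG) and an E-box (CACGTG) in TGFB2, and a full CRE (TGACGTCA) and an E-box in DUSP1, on either strand. The full CRE contains the CRE core. The windows are chr6:43171019-43171318, plus strand for SRF, chr6:131951323-131951622, minus strand for CCN2, chr1:218345086-218345385, plus strand for TGFB2 and chr5:172771146-172771445, minus strand for DUSP1 (RefSeq, GRCh38.p14).
SRF: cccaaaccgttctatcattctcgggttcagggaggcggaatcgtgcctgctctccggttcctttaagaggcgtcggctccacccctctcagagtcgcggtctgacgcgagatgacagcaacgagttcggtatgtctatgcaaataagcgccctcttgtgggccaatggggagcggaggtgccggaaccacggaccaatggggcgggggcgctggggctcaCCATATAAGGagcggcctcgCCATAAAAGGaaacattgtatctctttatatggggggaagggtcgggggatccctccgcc
CCN2: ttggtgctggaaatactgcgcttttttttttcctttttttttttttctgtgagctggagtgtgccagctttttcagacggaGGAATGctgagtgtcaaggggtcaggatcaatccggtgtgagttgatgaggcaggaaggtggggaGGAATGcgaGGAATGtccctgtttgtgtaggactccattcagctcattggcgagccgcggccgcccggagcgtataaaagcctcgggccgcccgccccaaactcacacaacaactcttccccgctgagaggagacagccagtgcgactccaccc
TGFB2: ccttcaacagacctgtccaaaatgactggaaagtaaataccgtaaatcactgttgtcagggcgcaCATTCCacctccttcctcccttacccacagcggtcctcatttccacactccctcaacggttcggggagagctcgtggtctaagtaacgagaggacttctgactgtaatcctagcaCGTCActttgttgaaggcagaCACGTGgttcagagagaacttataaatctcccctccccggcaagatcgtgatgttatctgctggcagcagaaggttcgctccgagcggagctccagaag
DUSP1: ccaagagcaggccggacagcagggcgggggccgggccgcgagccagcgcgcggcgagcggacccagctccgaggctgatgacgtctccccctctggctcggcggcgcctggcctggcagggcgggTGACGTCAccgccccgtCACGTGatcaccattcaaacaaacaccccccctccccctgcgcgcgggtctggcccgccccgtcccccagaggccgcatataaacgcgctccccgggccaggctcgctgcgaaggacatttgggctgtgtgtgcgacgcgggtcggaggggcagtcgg
SRF held 2 CArG boxes, at 30 and 10 bases before its start, and CCN2 held 3 TEAD sites, at 169, 104 and 95 bases before. CArG boxes were found in 6 of the 44 rises with a promoter (13.6%), namely GBP1, FHL2, RND3, FILIP1L, RCAN1 and SRF, against 1.22% of all 15384 promoters. TEAD sites were in 11 of the 44 (25.0%), against 11.93% of all, and full CREs in 3 (6.8%), against 2.67%. E-boxes were in 8 (18.2%) against 8.90%, CRE cores in 18 (40.9%) against 29.71%, and AP-1 sites (TGANTCA) in 2 (4.5%) against 5.84%. Other motifs searched were also more frequent among the rises, with TATA boxes (TATAAA) in 11 (25.0%) against 8.76% of all, NF-kB sites in 11 (25.0%) against 12.36%, EGR sites in 5 (11.4%) against 6.95% and GAS elements (TTCNNNGAA) in 4 (9.1%) against 6.95%, while FOXO sites (TGTTTAC) were in 1 (2.3%) against 2.62%. These are counts of letters in a window and were given no test.

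Adhesion and motility genes rose only in part. Of 32 integrins, laminins and focal adhesion proteins the called ones were THBS1, VCL and ZYX, with no called integrin or laminin and a median of 0.04. Of 30 motility and protease genes 2 rose, RND3 and TNFRSF12A. RND3, a GTPase that opposes actin stress fibres, was at 9.95, 9.75 and 9.78 with IGF-I, against 8.86, 8.93 and 8.95 in SFM (0.91 ± 0.06, SE, adjusted p = 8.71e-15). TNFRSF12A, the receptor of the cytokine TWEAK, was at 12.11, 12.03 and 12.05, against 11.39, 11.38 and 11.43 in SFM (0.66 ± 0.05, adjusted p = 1.33e-13). PLAU, the urokinase protease, was higher by 0.44 and CDC42EP3 by 0.45, under 1.5-fold, while SNAI1 changed by -0.08 and VIM by -0.14 without passing the test. CDC42EP3 was called by 1 of its 4 probe sets, not the brightest, at 0.67.

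Both an activator and an inhibitor of G1 kinases rose. CCND1, which encodes cyclin D1, was at 9.85, 9.79 and 9.84 with IGF-I, against 9.08, 9.27 and 9.05 in SFM (0.69 ± 0.07, SE, adjusted p = 3.87e-10). The other probe set of CCND1 was higher by 0.49, under 1.5-fold. CDKN2B, the gene of the CDK4 and CDK6 inhibitor p15, was at 7.96, 7.67 and 7.76, against 6.63, 6.85 and 6.93 in SFM (0.99 ± 0.09, adjusted p = 4.47e-11), and both of its probe sets were called. The groups of both genes were apart. No other gene of the 21 measured in this list was called, and CDKN1A, the p21 inhibitor, was higher by 0.37. Genes of later cell-cycle steps were not called at 4 h by limma. Of 40 mitotic genes 0 were called and 2 were lower at the adjusted p alone, and of 32 DNA replication genes 0 were called and 1 was lower. At an unadjusted p under 0.05, 16 mitotic genes (40.0%) and 9 replication genes (28.1%) were lower and 0 of either were higher, against 8.16% of all genes lower. Their medians were -0.09 and -0.08. MYBL2, a cell-cycle transcription factor, was at 11.01, 10.85 and 10.94 with IGF-I and 10.96, 10.98 and 10.98 in SFM (-0.04, adjusted p = 0.902).

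**Figure D3:**
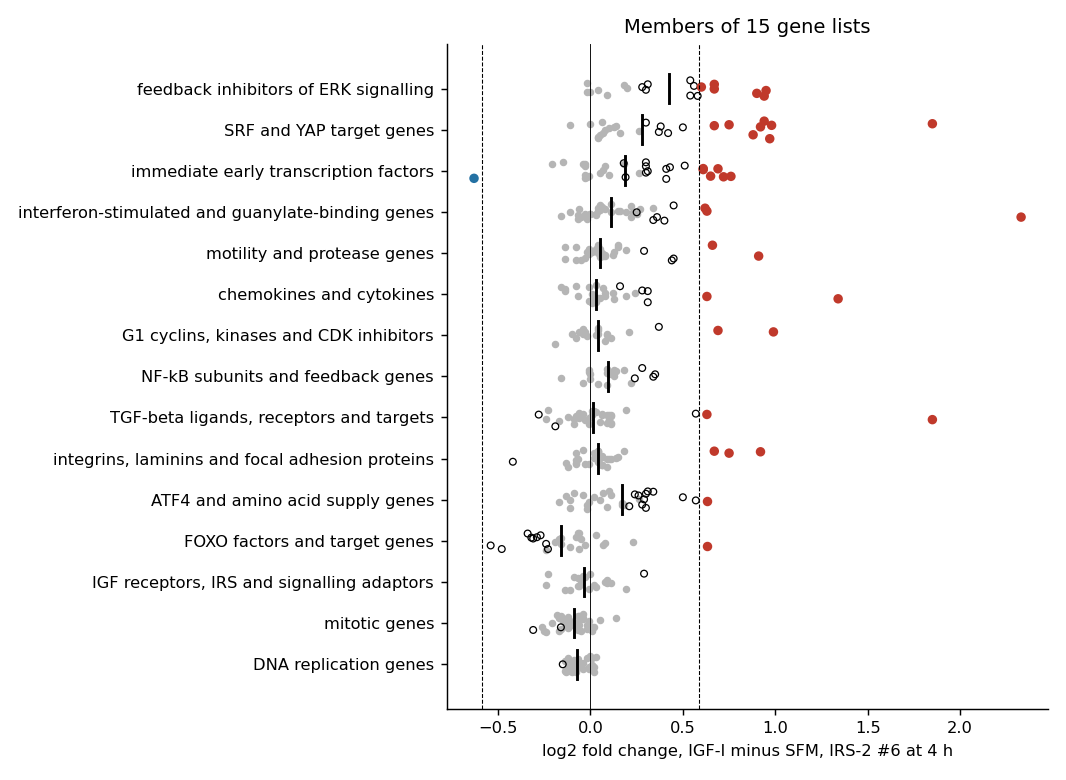
Log2 fold change, IGF-I minus SFM, of the measured members of 15 gene lists in IRS-2 #6 at 4 h. Red and blue points are called rises and falls, open circles pass the adjusted p alone, grey points pass neither, black bars are list medians and dashed lines 1.5-fold. Feedback inhibitors of ERK signalling have the highest median, 0.42, and FOXO factors and target genes the lowest, -0.16.

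FOXO factors and target genes had the lowest median of the lists, -0.16. Among the 27 measured, 9 were lower at the adjusted p alone, 0 were called as falls (12, or 44.4%, were lower at an unadjusted p under 0.05, against 8.16% of all genes), and 1 rose, TRIB1, a pseudokinase (0.63, and 0.54 without the IGF-I array A). The largest decreases were those of PDK4, a kinase that restrains pyruvate dehydrogenase (-0.54), and of FBXO32, a ubiquitin ligase subunit known as atrogin-1 (-0.48), chosen here after their values were seen, as were the other genes named under 1.5-fold that are not in the fixed set. CCNG2, BCL6 and YPEL3 were lower by 0.31, 0.32 and 0.34. KLHL24, which encodes an adaptor of a ubiquitin ligase, was counted as unchanged by its brightest probe set (-0.17), but the other 4 of its 5 were called, at -0.70, -1.0, -1.15 and -1.23. The last of these read 6.72, 6.61 and 6.75 with IGF-I, against 7.69, 8.15 and 7.93 in SFM. KLHL24 therefore held the largest falls of the comparison by probe set and none by gene. The receptor genes INSR (-0.24, adjusted p = 0.113) and IGF1R (-0.06, adjusted p = 0.847) and the adaptor genes IRS1 (0.09, adjusted p = 0.8) and IRS2 (-0.07, adjusted p = 0.892) were not called.

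Genes of ATF4 and of amino acid supply, kept in 1 list, were mostly shifted by less than 1.5-fold. Of 31 measured, 1 rose (GDF15) and 12 were higher at the adjusted p alone, 0 were lower at it, and the median was 0.17. INHBE, an inhibin subunit, was at 0.57, SLC7A1, a carrier of cationic amino acids, at 0.50 and ASNS, asparagine synthetase, at 0.30. SLC7A11, the cystine carrier, was not called by its brightest probe set, at 7.81, 7.79 and 7.80 with IGF-I against 7.54, 7.44 and 7.62 in SFM (0.26, adjusted p = 0.0593). Its other 2 probe sets were called at 1.02 and 0.94. The brighter of them read 8.49, 8.13 and 8.16 with IGF-I, against 7.17, 7.28 and 7.29 in SFM, so in these 6 arrays the brightest probe set was not the one chosen over all 48. HMGCS1, an early enzyme of cholesterol synthesis, was the 1 call among 23 lipid synthesis genes (0.60, and 0.53 without the IGF-I array A), and PMAIP1, the BH3-only protein NOXA, the 1 call among 17 genes of the BCL2 family (0.62, with 0.50 without the IGF-I array A and 0.53 without the SFM array A). ADM, the vasodilator peptide adrenomedullin, was at 11.45, 11.28 and 11.45, against 10.81, 11.01 and 11.02 in SFM, a difference of 0.45 under the fold limit (adjusted p = 2.47e-06). AHR, the dioxin receptor, rose by 0.86 while CYP1A1, its best known target, changed by -0.10.

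Some of the strongest rises lay outside these lists. SIPA1L2, a GTPase activator of RAP proteins, was at 10.39, 10.04 and 10.14 with IGF-I, against 9.11, 9.27 and 9.02 in SFM (1.06 ± 0.08, SE, adjusted p = 4.51e-13). SAMD4A, an RNA-binding repressor of translation, was at 11.21, 10.90 and 11.02, against 10.08, 10.14 and 10.10 in SFM (0.94), although only 2 of its 4 probe sets were called. COXFA4L3 rose by 0.89, ANXA3, an annexin, by 0.85 and NABP1, a single-stranded DNA-binding protein, by 0.79. The range of these 5 genes was 0.79 to 1.06, and none of their groups overlapped. The falls outside the lists were led by STON1, a stonin of endocytosis, at 8.42, 8.26 and 8.37 with IGF-I against 9.11, 9.27 and 9.29 in SFM (-0.88 ± 0.07, adjusted p = 9.4e-13). SOX2, a pluripotency factor, was at 8.30, 8.04 and 8.29, against 8.87, 9.16 and 8.99 in SFM (-0.80 ± 0.08, adjusted p = 6.15e-10), with only 1 of its 4 probe sets called. MPPED2 (-0.68), CHST15, a chondroitin sulfotransferase (-0.63), and MRNIP-DT, a non-coding transcript (-0.63), were the remaining falls, each called by 1 of 2 probe sets. None of the 3 held without each single array: MPPED2 was not called without the SFM array B, CHST15 without the SFM array C, and MRNIP-DT without the IGF-I or the SFM array B.

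Several genes were called only by a probe set other than the brightest. Taking any probe set, 86 genes were called in place of 60, the other 26 being 22 rises and 4 falls. The largest of them, picked by size after the values were seen, were MAFF, a small MAF transcription factor, CREB5, a relative of ATF2, and LMCD1, a LIM-domain cofactor. A probe set of MAFF read 8.87, 8.35 and 8.53 with IGF-I, against 6.41, 6.95 and 6.83 in SFM (1.85), while its brightest changed by 0.30. A probe set of CREB5 read 7.68, 7.30 and 7.60, against 5.63, 6.20 and 5.96 in SFM (1.6), and the called one of LMCD1 9.97, 9.69 and 9.74, against 8.41, 8.61 and 8.39 (1.33). Of the 122 called probe sets, 7 carry several gene symbols or none and are not named here.

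The 60 genes were then followed in the other sublines at 4 h, where each response has SFM arrays of its own. In IRS-2 #1 their direction was the same in 59 of 60, and in IRS-1 #10 and IRS-1 #20 in 57 and 55. The rises had a median log2 fold change of 0.70 in IRS-2 #6, where they were chosen, against 0.54 in IRS-2 #1, 0.42 in IRS-1 #20 and 0.21 in IRS-1 #10. Of the 54 rises 22 were called in IRS-2 #1, where 0.126% of all genes rose, 11 in IRS-1 #20 (0.0556% of all) and 8 in IRS-1 #10 (0.0556% of all). Among the 6 falls MRNIP-DT was called in IRS-2 #1 (0.0152% of all genes fell there), and SOX2 and STON1 in IRS-1 #20 (0.0303%). By their brightest probe sets GBP1, CCL2, FHL2, THBS1 and CCND1 rose in all 4 sublines. In IRS-1 #10 another probe set of GBP1 was at 0.32 and another of THBS1 at 0.57, neither called. CCND1 was nearly equal in the 4 sublines, at 0.69 in IRS-2 #6 against 0.78 in IRS-2 #1, 0.79 in IRS-1 #10 and 0.78 in IRS-1 #20. Its other probe set lay between 0.49 and 0.55 in them, under 1.5-fold. A further 31 of the 60 genes were called in none of the other 3 sublines at 4 h, which by itself does not show that the responses differ. At the adjusted p alone, 50 of the 60 passed in the same direction in IRS-2 #1, 42 in IRS-1 #20 and 24 in IRS-1 #10. Of all 19775 genes, 302 were higher and 157 lower at it in IRS-2 #1. The counts were 232 and 700 in IRS-1 #20, and 233 and 291 in IRS-1 #10.

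**Figure D4:**
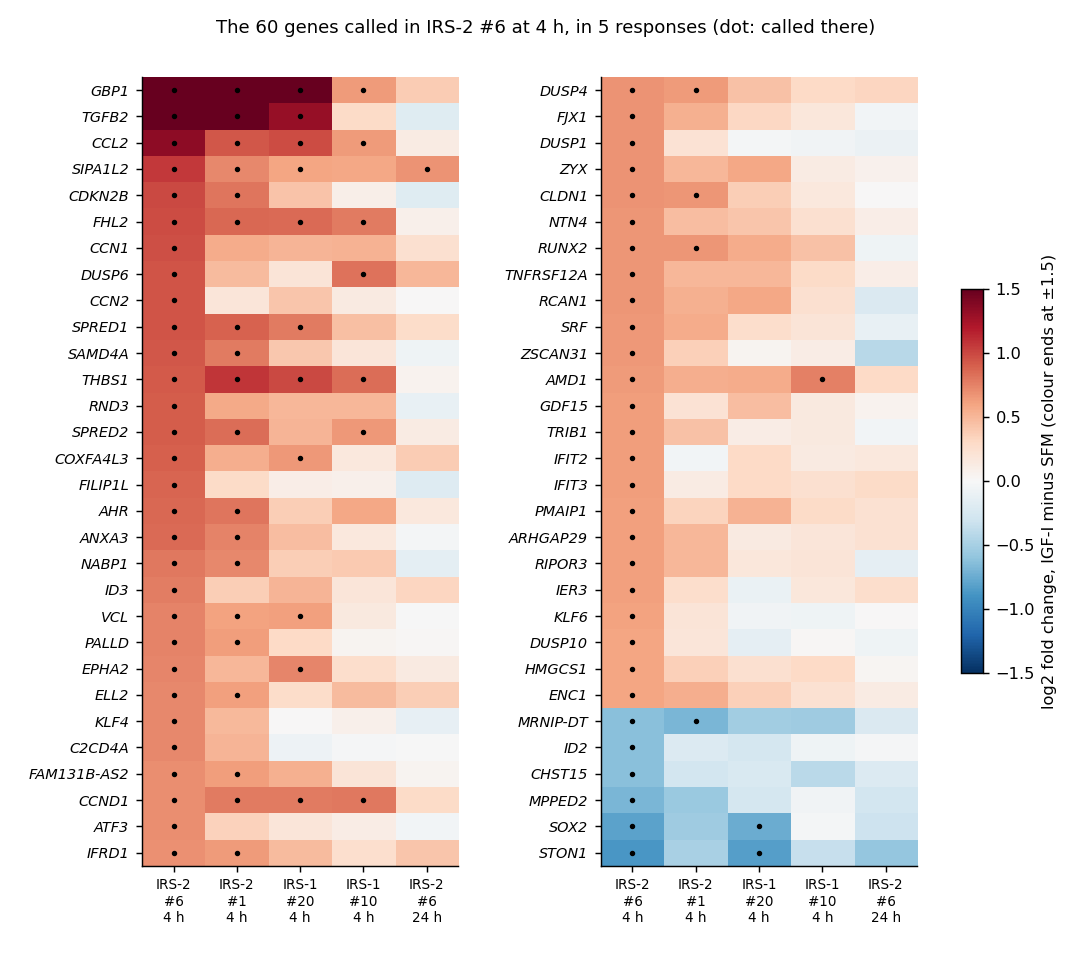
Log2 fold change, IGF-I minus SFM, of the 60 genes called in IRS-2 #6 at 4 h (rows, ordered by that response) in IRS-2 #6, IRS-2 #1, IRS-1 #20 and IRS-1 #10 at 4 h and in IRS-2 #6 at 24 h (columns); red is higher with IGF-I, blue lower, and dots mark responses called in that column. The columns pale from left to right, and SIPA1L2 is the 1 gene with a dot at 24 h.

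The difference between responses was tested as such. Between IRS-2 #6 and IRS-2 #1, limma called 0 genes, with 736 of 19775 at an unadjusted p under 0.05, and 1 of 54613 probe sets (0.00183%), the MAFF probe set above. It rose by 1.02 more in IRS-2 #6 (adjusted p = 0.043), a call that was lost when only the arrays compared were fitted. For GBP1 the difference was 0.27 and for TGFB2 0.21, small beside the rises themselves. CCN2, at 0.94 in IRS-2 #6 and 0.19 in IRS-2 #1, had a difference of 0.76 that did not pass the test (adjusted p = 0.175).

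Against the mean response of IRS-1 #10 and IRS-1 #20, the response of IRS-2 #6 differed in 34 probe sets (0.0623%) and 13 genes (0.0657%), with 12 of the genes upward. The largest differences were those of TGFB2 (1.05 ± 0.12, SE, adjusted p = 1.76e-07), GBP1 (0.92 ± 0.11, adjusted p = 6.06e-07), FILIP1L (0.79), C2CD4A (0.77) and CDKN2B (0.73). The IRS-1 sublines were unlike each other in TGFB2, which rose by 1.31 in IRS-1 #20 and was not called in IRS-1 #10 (0.28), and in GBP1, with 2.17 and 0.64. For these genes, IRS-2 #6 was therefore nearer to 1 of the IRS-1 sublines than to the other. By their brightest probe sets, DUSP1, KLF4, KLF6, DUSP10, FILIP1L and C2CD4A instead lay between -0.14 and 0.10 in both IRS-1 sublines, against 0.60 to 0.88 in IRS-2 #6. In IRS-2 #6 the other probe sets of DUSP1 were at -0.06 and 0.22, those of FILIP1L at 0.45 and 0.03 and that of DUSP10 at 0.42, none of them called. KLF4 was called by 2 of 2 probe sets, KLF6 by 2 of 5 and C2CD4A by its only 1. In IRS-2 #1 KLF4 was at 0.48 (limma adjusted p = 1.36e-06) and C2CD4A at 0.51 (adjusted p = 0.00027), higher but under 1.5-fold. There FILIP1L was at 0.29, DUSP1 at 0.22, KLF6 at 0.19 and DUSP10 at 0.19, and none of these 4 passed the adjusted p. The same 4 lay nearer to the IRS-1 sublines than to IRS-2 #6. For none of these 6 genes did the difference between IRS-2 #6 and IRS-2 #1 pass its test (lowest adjusted p = 0.437, DUSP1). Against the IRS-1 mean, DUSP1 in IRS-2 #6 differed by 0.71 (adjusted p = 2.88e-06) and KLF4 by 0.68 (adjusted p = 3.76e-07). ADAMTS15, a matrix protease gene, was the 1 downward difference, at -0.56 in IRS-2 #6 against 0.03 in IRS-1 #10 and 0.09 in IRS-1 #20 (-0.62, adjusted p = 0.00477). In IRS-2 #1 it was at -0.10 (adjusted p = 0.824), nearer to the IRS-1 sublines, and 0 of its 2 probe sets were called in IRS-2 #6. The downward difference of ADAMTS15 from the IRS-1 mean was not called with a Bonferroni adjustment, with normexp or from averaged probe sets. Each side of this test is a mean over sublines or a single subline, so isoform and subline cannot be told apart in it.

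**Figure D5:**
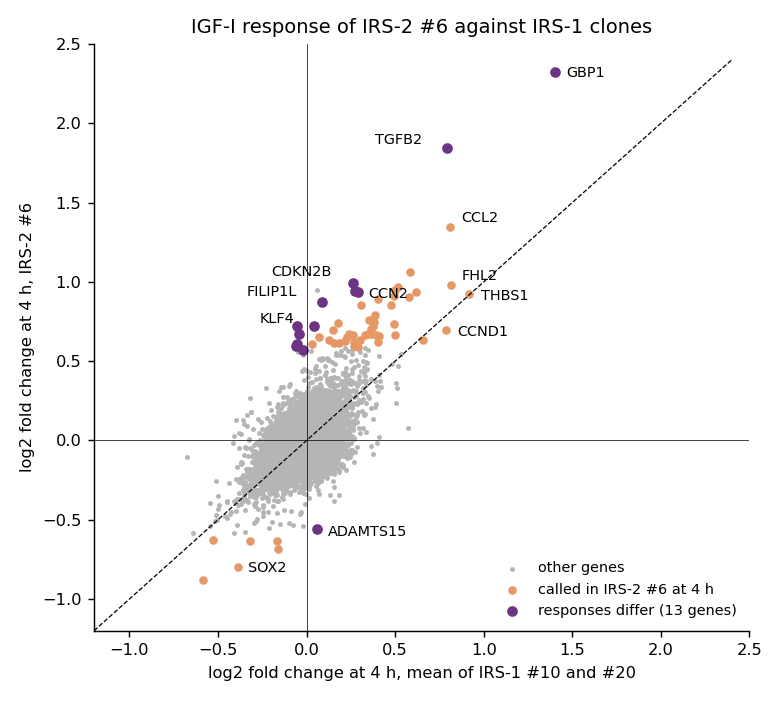
Log2 fold change at 4 h of each gene, mean of IRS-1 #10 and IRS-1 #20 (x axis) against IRS-2 #6 (y axis). Orange points are genes called in IRS-2 #6, purple points the 13 genes whose responses differ, and the dashed line marks equal responses. Most orange points among the rises lie above the line, whereas THBS1 and CCND1 lie on or below it. The orange genes were chosen by their response in IRS-2 #6, which favours larger values on that axis.

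At 24 h, read on other IGF-I and SFM arrays, most of the 54 rises of IRS-2 #6 were no longer called and other genes had changed. Only SIPA1L2 of the 54 rises was called (0.68 at 24 h, 1.06 at 4 h), the 1 gene to rise at that time (0.00506% of all). Another 12 genes fell at 24 h (0.0607% of all), none of them called at 4 h. The largest of those falls that also differed from 4 h, chosen after their values were seen, were CCL20, a chemokine, at -1.01 at 24 h against 0.01 at 4 h, H2AC6, a histone gene, at -0.83 against 0.08, SULF1, a heparan sulfatase, at -0.77 against -0.04, and CFB, complement factor B, at -0.74 against 0.12. At the adjusted p alone 281 genes were higher and 858 lower at 24 h, against 373 and 312 at 4 h. Of the 40 mitotic genes, 40 were above 0 and 25 higher at the adjusted p at 24 h (median 0.23), against 5 above 0 and 0 higher at 4 h. The median of the 54 rises at 24 h was 0.05, and 34 of the 54 were above 0. Over all 19775 genes, 9998 were above 0 at 24 h and 8582 at 4 h. The response at 24 h differed from that at 4 h in 131 probe sets (0.240%) and 59 genes (0.298%), 57 of them downward. The downward differences included 34 of the 54 rises and 5 of the 24 h falls, with 18 genes called at neither time, and the upward ones included 1 of the 6 falls at 4 h, ID2. The called genes of each time were chosen on arrays that this difference also uses. The choice itself therefore favours such differences among them. TGFB2 was at -0.18 at 24 h against 1.85 at 4 h (difference -2.02 ± 0.14, SE, adjusted p = 5.81e-15), and GBP1 at 0.38 against 2.33 (-1.95 ± 0.13, adjusted p = 3.85e-15). CCL2 was at 0.12 against 1.34 (-1.23) and CDKN2B at -0.19 against 0.99 (-1.18). Among the rises whose difference was not called was DUSP6, at 0.50 at 24 h against 0.95 at 4 h. Upward differences were those of ID2 (0.61), at -0.02 at 24 h against -0.63 at 4 h, and of the mitotic kinase TTK (0.61), at 0.30 against -0.31.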

How the data were processed

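RNA of 16 groups with 3 samples each was profiled on the Affymetrix HG-U133 Plus 2.0 platform, giving 48 arrays. The authors deposited log2 values, which according to the methods and the submitters' processing notes were summarized with GC-RMA (version not given in the sources used here), so probe background and differences between arrays were already removed. The methods also describe normalization to untreated cells, which these values do not carry. They ran from 3.13 to 15.36, and array medians from 7.39 to 7.51. No raw intensities were used, so signal over background is unknown, and the number of arrays limits the precision.

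The 62 Affymetrix controls among 54675 probe sets were not tested. Symbols came from the platform annotation (41097 probe sets with 1 symbol, 1801 with several, 11777 with none), of which 41043 were matched to RefSeq by Entrez identifier with 0 symbols changed. A gene was read by its single-symbol probe set with the highest mean over 48 arrays.

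One limma model (version 3.58.1, in R 4.3.3) held all arrays as 16 group means, followed by eBayes with an intensity trend (32 residual degrees of freedom), without a filter on dim probe sets. A call needed a Benjamini-Hochberg adjusted p under 0.05 over 54613 probe sets and at least 1.5-fold (0.58 on the log2 scale). Differences between responses were contrasts of the same fit. On simulated data for IRS-2 #6 at 4 h with changed probe sets among 54613 (50 for each fold), 84% of 1.6-fold and 100% of 2-, 3- and 4-fold changes were recovered, with 2 unchanged probe sets called. The simulated noise was independent between probe sets, so these counts do not cover errors shared across the probe sets of an array.

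Named genes are the 20 largest rises and 8 largest falls (6 were called), called members of 31 gene lists, 26 fixed genes such as the receptors, adaptors and immediate early genes, and the 5 largest differences in each direction between responses. Members and lists were chosen with earlier results of these data known. Promoter windows were searched for motif letters on both strands, and 44 of the 54 rises and 5 of the 6 falls had one. Alternatives were other fold and p thresholds, a dim filter (log2 of 5 on 3 arrays), quantile normalization, median centring, normexp background (offset 50), a fit of the arrays compared, no trend, a replicate block, averaging the probe sets of a gene, the methods' t-test and each array or letter left out. Figures were drawn with matplotlib 3.10.9 in Python 3.11.15, and tables made with pandas 2.3.3.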

Additional observations from a re-analysis of the deposited data

Results flagged for a closer look

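The response of IRS-2 #6 differed from the mean of IRS-1 #10 and IRS-1 #20 at 4 h, in limma's test of the difference, by 1.05 in TGFB2, 0.92 in GBP1, 0.79 in FILIP1L, 0.77 in C2CD4A, 0.73 in CDKN2B and -0.62 in ADAMTS15 on the log2 scale. In TGFB2 and GBP1 IRS-1 #20 was nearer to IRS-2 #6 than to IRS-1 #10.

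Between 24 h and 4 h in IRS-2 #6 the same kind of test separated TGFB2 (-2.02), GBP1 (-1.95), CCL2 (-1.23), CDKN2B (-1.18) and FILIP1L (-1.07), which responded less at 24 h, and TTK (0.61) and ID2 (0.61), whose log2 fold changes were -0.31 and -0.63 at 4 h.

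The MAFF probe set differed by 1.02 between IRS-2 #6 and IRS-2 #1 at 4 h, the only probe set called in that test of 54613.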

How the results depend on the processing

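Of the 60 genes called in IRS-2 #6 at 4 h, 21 were called in every alternative other than the 2-fold threshold and the methods' t-test after adjustment, GBP1, TGFB2, CCL2, CCN1, CCND1 and STON1 among them. The other 39 were lost in at least 1, with 28 lost when a gene's probe sets were averaged, 22 without the arrays A, 13 with normexp and 11 without the IGF-I array A alone. 0 named genes changed direction past a threshold. The cause was not tested.

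A 2-fold threshold left 18 of 122 probe sets (15 rises, 3 falls, 4 genes), and no fold threshold gave 1281 (741 rises, 540 falls, 685 genes). With normexp there were 86 probe sets, 7 of them falls. The methods' t-test gave 120 at its unadjusted threshold and 0 after Benjamini-Hochberg. Counting a gene by any probe set, an alternative chosen after seeing the data, gave 86 genes. Against IRS-1, 34 probe sets became 6 at 2-fold and 144 with no fold threshold, and between 24 h and 4 h, 131 became 24 and 533 in the same order, and 83 with normexp. There 39 genes were called from means of probe sets, against 59. The single MAFF call against IRS-2 #1 became 2 with quantile normalization, 3 with normexp, and 0 with median centring, with only the arrays compared or with no intensity trend.

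Without single arrays or letters the count of probe sets ran from 106 to 183, of rises from 76 to 172, of falls from 11 to 30, of genes from 49 to 88, of differences from IRS-2 #1 from 0 to 12, from IRS-1 from 23 to 63, and between times from 84 to 171. The falls were 24 without the SFM array A, 21 without the IGF-I array A and 20 without the IGF-I array C, and 56 probe sets differed from IRS-1 without the IGF-I array B. Without the arrays A the falls were 30 and the differences between times 84, and without the arrays B 183 probe sets were called and 63 differed from IRS-1. Deviations of same-letter IGF-I and SFM arrays correlated at -0.239, -0.47 and -0.0631, and those of unlike letters at -0.184 to 0.357. Because unlike letters also gave sizeable correlations, these values cannot tell whether same-letter arrays shared a culture or batch. A replicate block gave 109 probe sets, 2 against IRS-2 #1 and 85 between times.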
